A study of Drosophila melanogaster with 18 samples.

Results

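Embryos that overexpressed E2f2 together with Dp were set against embryos that lacked Dp, all aged 8 to 10 h. The comparison takes 4 of the 18 arrays of the study, 2 per genotype, chosen by the genotype and age in the labels and by no measured value. It covers 8975 units, of which 7927 are named genes and 1048 are probe sets without a single gene in the annotation.

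The E2f2/Dp embryos came from a cross of Arm-Gal4, a driver under the broadly active armadillo promoter, to flies with UAS transgenes for E2f2 and Dp. The Dp mutants carried the 2 null alleles Dpa2 and Dpa4, came from parents with the CyO[Kr-GFP] balancer, and were picked by a COPAS embryo sorter. Control embryos of the same age came from Arm-Gal4 crossed to yw, and a second control pair was aged 14 to 16 h. Another pair of genotypes without any of these arrays was used beside them: Arm-Gal4 embryos with E2f1 and Dp transgenes, and E2f17172/E2f191 null mutants from TM3[Kr-GFP] stocks, sorted in the same way, both at 8 to 10 h. The dominant negative E2f1 and Rbf1 embryos enter here only in ranges over all arrays of 8 to 10 h. Each array held RNA of about 200 to 700 whole embryos collected over 2 h and aged at 25 °C. The labels do not say whether the 2 arrays of a group came from separate collections, so each p-value rests on array-to-array spread that may be technical. The mutants differed from the E2f2/Dp embryos in driver, stock and sorting as well as in genotype, and these cannot be told apart. The mutants had heterozygous mothers, so maternally loaded Dp product was not removed by the cross.

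E2F proteins bind DNA as pairs with Dp. In Drosophila, E2f1 mainly activates S-phase genes, whereas E2f2 mainly represses genes. E2f2 works with Dp, the Rbf proteins and several Mip proteins in the dREAM complex, which keeps cell cycle and differentiation genes silent. Loss of Dp therefore removes the partner of both E2f1 and E2f2. Most embryonic cells have left the cell cycle by the ages studied here, while gut, muscle and epidermis begin to express their differentiated products.

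The transgenes and the null alleles were visible in the arrays. E2f2, on chromosome arm 2L, had signals of 21453 and 21003 in E2f2/Dp embryos, 2135 and 2313 in Dp mutants, and 2376 and 1979 in control embryos. Both E2f2/Dp arrays lay far above the others, and the Dp mutant and control arrays overlapped. E2f2 was 9.55-fold higher in E2f2/Dp embryos than in Dp mutants (log2 change 3.26 ± 0.28 SE, n = 2 each, adjusted p = 1.98e-05, limma). Dp, on arm 2R, had signals of 4283 and 4477 in E2f2/Dp embryos, 497 and 678 in Dp mutants, and 2090 and 1649 in control embryos. The 3 groups did not overlap, with the Dp mutants below all 12 other arrays of 8 to 10 h, whose lowest signal was 1456. Dp differed by 7.54-fold (log2 change 2.91 ± 0.19, adjusted p = 1.18e-06). E2f1 was at 1076 and 1008 in E2f2/Dp embryos and 1605 and 1227 in Dp mutants, and this did not pass (log2 change -0.43 ± 0.54, adjusted p = 0.74). Rbf, the Drosophila retinoblastoma protein, was at 242 and 317 in E2f2/Dp embryos and at 217 and 353 in Dp mutants, with overlapping arrays (adjusted p = 1).

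Of the 8975 units, 251 passed an adjusted p of 0.05 in the contrast of E2f2/Dp embryos with Dp mutants, or 2.8%. Of these, 105 (1.17%) were higher and 146 (1.63%) were lower in E2f2/Dp embryos. The arrays of the groups did not overlap on any of the 251, nor on 50.6% of all 8975 units. At an unadjusted p under 0.05, 1607 units or 17.9% passed. The log2 changes of the higher units lay between 0.62 and 5.15 with a median of 1.06, and 11 of them exceeded 4-fold. Those of the lower units lay between -0.72 and -5.49 with a median of -1.86, and 66 of them exceeded 4-fold. The median over all units was 0.05. The number of calls depended on single arrays: it was 48 without E2f2/Dp replicate 1, 101 without E2f2/Dp replicate 2, 50 without Dp mutant replicate 1 and 302 without Dp mutant replicate 2. Calls that held without each of the 4 arrays in turn numbered 28, of which 18 were higher and 10 lower. They included E2f2, Dp, CG13794, thw, CG31445, Cyp4p2, Nop60B, cold, dnk, PCNA and brat among the higher and betaTry, Fmo-1, Prm and RpL37A among the lower. Each such setting leaves a lone array in 1 group, which is assumed to vary like the other groups.

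Against the control, the 2 genotypes contributed unequally. E2f2/Dp embryos differed from the control in 7 units, or 0.078%, and Dp mutants in 359 units, or 4%. At an unadjusted p under 0.05 these counts were 790 (8.8%) for E2f2/Dp embryos and 1764 (19.7%) for Dp mutants. Both contrasts use the same 2 control arrays. The E2f2/Dp contrast gave 195 calls without control replicate 2, 3 without E2f2/Dp replicate 2, and 5 and 6 without the other 2 arrays. The Dp mutant contrast gave 783 without control replicate 2, 84 without control replicate 1, 71 without Dp mutant replicate 1 and 265 without Dp mutant replicate 2. The 7 units were E2f2, Dp, Cpr49Ac, RpL28 and 1 probe set without a gene on the higher side and CG32548 and Osi20 on the lower side, and all but E2f2 and Dp were named after their values were seen. Cpr49Ac, a cuticle protein gene, was at 240 and 427 in E2f2/Dp embryos and at 27.0 and 28.3 in control embryos, both under the floor (at least 6.74-fold higher, adjusted p = 0.0279). It was at 281 and 395 in Dp mutants, and the 2 genotypes overlapped. Of the 251 units called between the 2 genotypes, the Dp mutant arrays alone lay outside the range of the other 12 arrays of 8 to 10 h in 123. The E2f2/Dp arrays alone did so in 24, both pairs in 11 and neither in 93. Over all 8975 units these counts were 691 for the Dp mutants alone, 194 for E2f2/Dp alone, 14 for both and 8076 for neither.

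Of 11 measured dREAM subunits, 5 were higher in E2f2/Dp embryos and none lower, against 1.17% and 1.63% of all units. Among them E2f2 and Dp are the transgenes, and Dp is also the mutated gene, so their calls were set by the design. The others were mip130, mip40 and Caf1-55. The list's median log2 change was 0.38. mip130 had 1146 and 899 in E2f2/Dp embryos, 321 and 477 in Dp mutants, and 1242 and 858 in control embryos (log2 change 1.37 ± 0.32, adjusted p = 0.0332). mip40 had 2544 and 2951 in E2f2/Dp embryos and 1244 and 959 in Dp mutants (log2 change 1.33 ± 0.29, adjusted p = 0.0248), with 2733 and 1704 in control embryos. Caf1-55, a histone-binding subunit that dREAM shares with several chromatin complexes, had 3913 and 3693 in E2f2/Dp embryos and 1944 and 2073 in Dp mutants (log2 change 0.92 ± 0.22, adjusted p = 0.0361). For all 3 genes both Dp mutant arrays were below both E2f2/Dp arrays and both control arrays. The other measured subunits did not pass: mip120 (log2 change 0.15), l(3)mbt (-0.09), lin-52 (0.38), HDAC1 (0.05), Rbf (0.00) and Rbf2 (-0.76).

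The remaining members of the E2F and Rb network gave no call. CycE, which drives entry into S phase with Cdk2, was at 572 and 1095 in E2f2/Dp embryos and 908 and 965 in Dp mutants (log2 change -0.24 ± 0.37, adjusted p = 0.797). Cdk2 had a log2 change of 0.48 ± 0.21 (adjusted p = 0.24), CycD of 0.28 and Cdk4 of -0.22. Rbf2 was at 354 and 525 in E2f2/Dp embryos and 686 and 773 in Dp mutants, without overlap, but its adjusted p was 0.545.

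**Figure D1:**
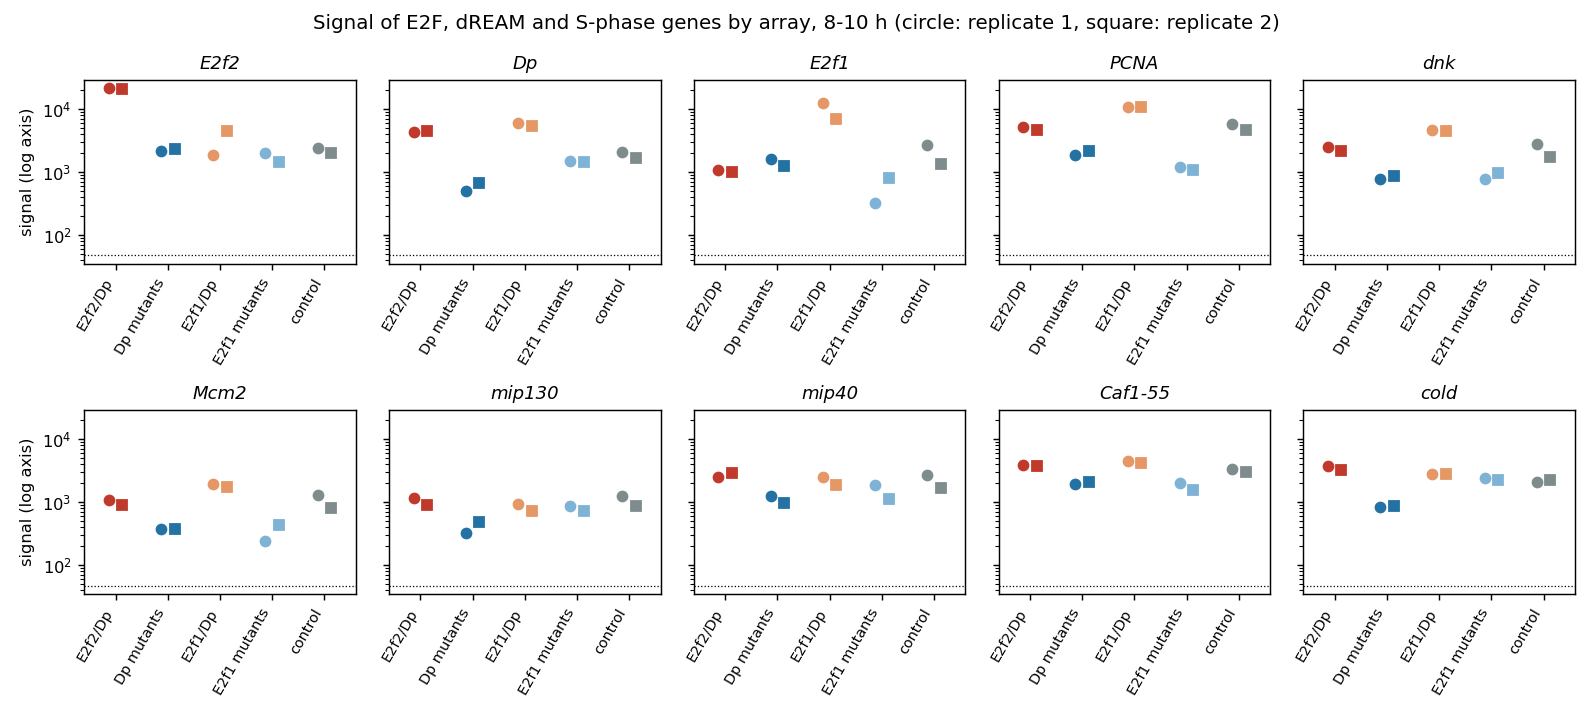
Quantile-normalised signal (log axis) of 10 genes on each array of 8 to 10 h, by genotype from E2f2/Dp on the left to control on the right, with 1 point per array and a dotted line at the floor of 47.5. The E2f2 signal stands out in E2f2/Dp embryos (21453 and 21003), and Dp, mip130 and cold lie lower in Dp mutants than in the other groups shown.

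The S-phase genes that E2F is best known for were called only in part. Of 19 origin licensing and firing genes 1 passed, of 19 replication fork genes 1, and of 14 nucleotide synthesis genes 2. All were called higher in E2f2/Dp embryos, as were 1.17% of all units. At an unadjusted p under 0.05 these lists held 6, 1 and 3 genes, in the same order, against 17.9% of all units. The median log2 changes of these lists were 0.28, 0.18 and 0.01. PCNA, the sliding clamp of the replication fork, had 5123 and 4572 in E2f2/Dp embryos, 1828 and 2157 in Dp mutants, and 5775 and 4702 in control embryos. E2f2/Dp and control arrays overlapped, and both Dp mutant arrays lay below them. PCNA was 2.44-fold higher in E2f2/Dp embryos than in Dp mutants (log2 change 1.29 ± 0.20, adjusted p = 0.00292). dnk, the deoxyribonucleoside kinase that salvages nucleosides for DNA synthesis, had 2509 and 2166 in E2f2/Dp embryos and 760 and 849 in Dp mutants, with 2797 and 1711 in control embryos. Its log2 change was 1.54 ± 0.21 (adjusted p = 0.00157). Mcm2, a subunit of the replicative helicase, had 1066 and 897 in E2f2/Dp embryos, 381 and 378 in Dp mutants, and 1305 and 798 in control embryos (log2 change 1.37 ± 0.30, adjusted p = 0.0256). dUTPase, which keeps uracil out of DNA, had 2565 and 2206 in E2f2/Dp embryos and 1163 and 1326 in Dp mutants (log2 change 0.94 ± 0.24, adjusted p = 0.0461).

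Some other members of these lists had changes in the same direction that did not pass. Mcm6 had a log2 change of 1.16 ± 0.32 (adjusted p = 0.0662) and dpa, which encodes Mcm4, of 0.89 (adjusted p = 0.207). RnrL, the large subunit of ribonucleotide reductase, changed by 0.91 (adjusted p = 0.102). The changes of bur, of the nucleotide list (-0.39), and RfC38, of the fork list (-0.30), had the other sign and did not pass. Values above 0 were found for 15 of 19 origin, 13 of 19 fork and 8 of 14 nucleotide synthesis genes. Over all units this share was 54.1%. The 38 mitosis genes gave no call in either direction, with a median of -0.05 (6 at an unadjusted p under 0.05, a level that 17.9% of all units reached). The 6 condensin and 10 cell death genes gave none either (2 and 0 at that level). Among 22 DNA damage and repair genes only Fancd2 passed, and it was called lower in E2f2/Dp embryos, as were 1.63% of all units. Fancd2, of the Fanconi anaemia pathway, was at 211 and 158 in E2f2/Dp embryos and at 564 and 801 in Dp mutants (log2 change -1.88 ± 0.41, adjusted p = 0.0221).

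Among the calls on dREAM and S-phase genes, E2f2, Dp, PCNA and dnk held without each array. Those of mip130, mip40, Caf1-55, Mcm2, dUTPase and Fancd2 did not. Their adjusted p was 0.086 to 0.281 without E2f2/Dp replicate 1, 0.0724 to 0.132 without E2f2/Dp replicate 2 and 0.0859 to 0.288 without Dp mutant replicate 1. Without Dp mutant replicate 2 it was 0.0717 to 0.114, except for mip130 at 0.0311. With the arrays centred on their medians in place of quantile normalization, dUTPase (adjusted p = 0.0842) and Caf1-55 (0.0582) also lost their calls.

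The pair of E2f1/Dp embryos and E2f1 mutants, which shares no array with the main pair, gave more calls among origin and replication fork genes. In that contrast 302 units passed, or 3.36%, with 165 higher (1.84%) and 137 lower (1.53%). Without single arrays it gave 115 to 237 calls, the lowest number without E2f1 mutant replicate 1, and 116 without E2f1/Dp replicate 1. Of the origin genes 11 of 19 were higher in E2f1/Dp embryos, and of the replication fork genes 12 of 19, with median log2 changes of 1.80 and 1.76. Of the 14 nucleotide synthesis genes 4 were higher and 1 lower, with a median of -0.07. PCNA was at 10849 on both E2f1/Dp arrays and at 1218 and 1068 in E2f1 mutants (log2 change 3.25, adjusted p = 1.65e-07). Across all 8975 units the log2 changes of the 2 contrasts had a Pearson correlation of 0.045, given as a description of arrays normalised together.

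The difference between the 2 contrasts was tested directly, and 125 units passed (1.39%), of which 45 were higher and 80 lower in the E2f2/Dp contrast. PCNA changed less in the E2f2/Dp contrast, by -1.96 on the log2 scale (adjusted p = 0.00589), and so did RnrL (-2.02, adjusted p = 0.0282) and dpa (-2.18, adjusted p = 0.0497). Of the fork genes 4 passed in this test, namely PCNA, PolA1, RPA1 and RPA2. Of the origin genes dpa and Orc5 passed, and of the repair genes Fancd2, tefu, rad50 and Msh6. All 10 of these genes had the smaller or the opposite change in the E2f2/Dp contrast, and those outside the naming rule were named after their values were seen. For Fancd2 the 2 contrasts had opposite signs: it was at 473 and 361 in E2f1/Dp embryos and at 93.7 and 174 in E2f1 mutants (log2 change 1.70, adjusted p = 0.0307). The differences of mip130, mip40, Caf1-55, dnk, dUTPase and Mcm2 did not pass (adjusted p = 0.148 to 0.764). The number of differences passed depended on each of several arrays. It was 11 without Dp mutant replicate 1, 24 without E2f1 mutant replicate 1, 26 without E2f2/Dp replicate 1, 39 without E2f1/Dp replicate 1 and 44 without E2f2/Dp replicate 2. It was 237 without Dp mutant replicate 2 and 210 without E2f1/Dp replicate 2. The difference of PCNA passed without each of these 8 arrays in turn. That of dpa was lost without 7 of them (adjusted p = 0.0618 to 0.161) and held only without E2f1 mutant replicate 2 (0.0158). That of RnrL was lost without E2f2/Dp replicate 1 (adjusted p = 0.11), Dp mutant replicate 1 (0.0776), E2f1/Dp replicate 1 (0.0931) and E2f1 mutant replicate 1 (0.0702).

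**Figure D2:**
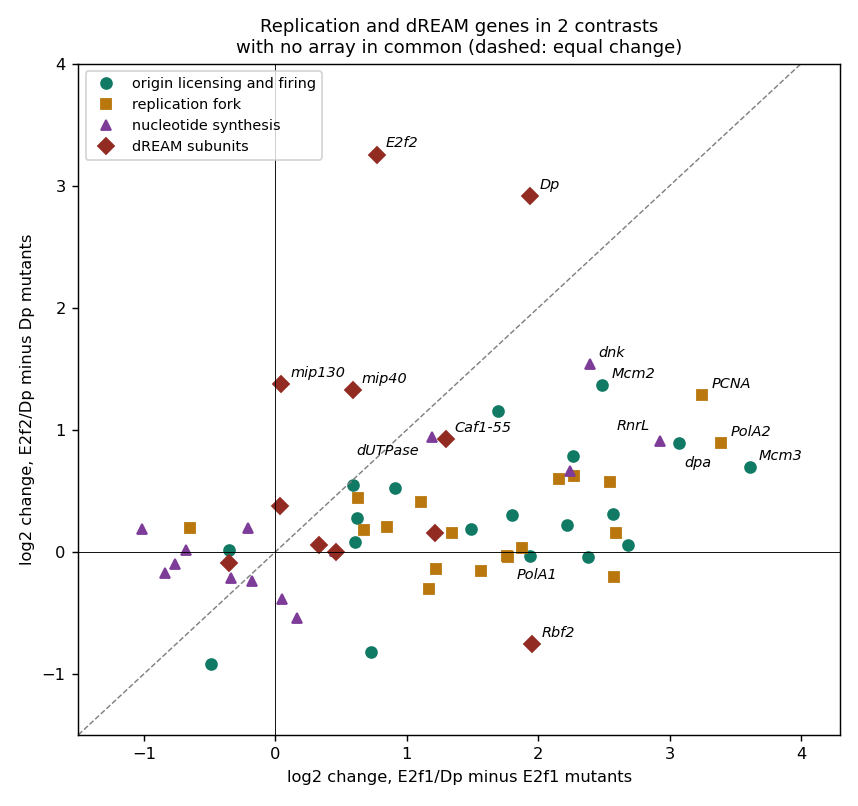
Log2 change of origin, replication fork, nucleotide synthesis and dREAM genes in E2f2/Dp minus Dp mutants (vertical) against E2f1/Dp minus E2f1 mutants (horizontal), with 1 point per gene. Most origin and fork genes lie right of zero and below the dashed line of equal change, PCNA at 3.25 and 1.29, and E2f2 and Dp lie above it.

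Called in both contrasts in the same direction were 18 higher and 17 lower units. The 18 were 17.1% of the higher calls of the E2f2/Dp contrast and 10.9% of those of the E2f1/Dp contrast. They included Dp, PCNA, Mcm2, dnk, dUTPase, Caf1-55, WRNexo, Nop10, Drsl5, brat, CG13794, CG31445 and Cyp4p2. The 17 lower units were 11.6% of the lower calls of the E2f2/Dp contrast and 12.4% of those of the other. Fancd2 was the only unit called in opposite directions. Drsl5, a drosomycin-like peptide gene, was at 11697 and 10749 in E2f2/Dp embryos and 4333 and 6481 in Dp mutants (log2 change 1.08, adjusted p = 0.048). It was at 11189 and 14557 in E2f1/Dp embryos and at 781 and 1141 in E2f1 mutants, and the contrasts differed by -2.68 (adjusted p = 0.00671). Drsl5 lost its call in the E2f2/Dp contrast without E2f2/Dp replicate 1 (adjusted p = 0.255) and replicate 2 (0.137) and without Dp mutant replicate 1 (0.368). brat, a translational repressor that limits growth in neural stem cell lineages, was at 5739 and 6675 in E2f2/Dp embryos and 2846 and 3134 in Dp mutants. It was at 5340 and 5194 in E2f1/Dp embryos and at 2612 and 2902 in E2f1 mutants. Its log2 changes were 1.05 (adjusted p = 0.00282) and 0.94 (adjusted p = 0.00376).

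Several of the strongest changes came from single genes that were dim on both Dp mutant arrays. CG13794 was at 2399 and 1676 in E2f2/Dp embryos, 52.6 and 60.5 in Dp mutants, and 794 and 2023 in control embryos (log2 change 5.15 ± 0.57, adjusted p = 0.000178). It was also dim in E2f1 mutants, at 31.8 and 158, against 672 and 1572 in E2f1/Dp embryos. CG31445 behaved alike, with 707 and 967 in E2f2/Dp embryos and 74.9 and 75.7 in Dp mutants (log2 change 3.46 ± 0.42, adjusted p = 0.000343). It was at 541 and 610 in E2f1/Dp embryos and at 50.4 and 17.2 in E2f1 mutants.

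For 3 other genes both Dp mutant arrays lay under the floor of 47.5, while the E2f1 mutants did not. thw was at 624 and 474 in E2f2/Dp embryos and at 25.4 and 33.2 in Dp mutants, and its lowest signal on the other 12 arrays of 8 to 10 h was 122. It was at least 11.4-fold higher in E2f2/Dp embryos (adjusted p = 0.00181). Nop60B, the pseudouridine synthase of the H/ACA particles that modify ribosomal RNA, was at 342 and 293 in E2f2/Dp embryos and at 8.82 and 40.8 in Dp mutants. Its lowest signal on the other 12 arrays was 207, and it was at least 6.67-fold higher in E2f2/Dp embryos (adjusted p = 0.000178). CG13361 was at 289 and 437 in E2f2/Dp embryos and at 34.1 and 32.3 in Dp mutants, at least 7.49-fold higher (adjusted p = 0.0309). Cyp4p2, a cytochrome P450, was at 1530 and 942 in E2f2/Dp embryos, 99.7 and 221 in Dp mutants, and 1580 and 1310 in control embryos (log2 change 3.02 ± 0.33, adjusted p = 0.000178).

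Of the 10 largest fitted rises, E2f2 and CG14762 were those in which the E2f2/Dp arrays lay outside the range of the other 12 arrays. It was at 306 and 356 in E2f2/Dp embryos, 74.0 and 48.9 in Dp mutants, and 132 and 118 in control embryos (log2 change 2.46, adjusted p = 0.0256). Its highest signal on those 12 arrays was 184. CG17359 was at 277 and 361 in E2f2/Dp embryos and at 34.4 and 104 in Dp mutants (log2 change 2.17, adjusted p = 0.0277), with 1 Dp mutant array under the floor. The calls of CG13361, CG14762 and CG17359 were lost without E2f2/Dp replicate 1 (adjusted p = 0.113 to 0.13), E2f2/Dp replicate 2 (0.12 to 0.16) and Dp mutant replicate 1 (0.0963 to 0.279). Those of CG13361 (0.0812) and CG14762 (0.106) were also lost without Dp mutant replicate 2.

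cold, which encodes a Ly6-family protein needed for septate junctions, had 1 of the smallest p-values. It was at 3772 and 3184 in E2f2/Dp embryos, 837 and 874 in Dp mutants, and 2097 and 2279 in control embryos. The E2f2/Dp arrays were above and the Dp mutant arrays below all other arrays of 8 to 10 h. It was 4.05-fold higher in E2f2/Dp embryos than in Dp mutants (log2 change 2.02 ± 0.16, adjusted p = 7.68e-06). It did not pass between E2f1/Dp embryos and E2f1 mutants (log2 change 0.27, adjusted p = 0.44), and the difference between the contrasts was 1.74 (adjusted p = 0.00256). The other 17 septate junction genes gave no call, and the list's median was -0.26.

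Genes of the differentiating gut were the largest group on the lower side. Of 27 measured genes of digestion, 10 were lower in E2f2/Dp embryos than in Dp mutants and none higher. Their median log2 change was -1.75, and 26 of 27 values were below 0. Over all units, 1.63% were called lower and 45.9% had values below 0. The 10 were the trypsins betaTry and alphaTry, the lysozymes LysB, LysD and LysE, and the Jonah proteases Jon44E, Jon65Aiii, Jon65Aiv, Jon66Ci and Jon99Fii. In bulk RNA of whole embryos, fewer cells of a type and less RNA per cell cannot be told apart. These genes form families of close copies, and how far the probe sets of 1 family share target RNA was not tested.

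betaTry was at 141 and 132 in E2f2/Dp embryos, 5194 and 2642 in Dp mutants, and 122 and 149 in control embryos. Only the Dp mutants stood apart, since the other 12 arrays lay between 92.2 and 165. It was 27.1-fold lower in E2f2/Dp embryos than in Dp mutants (log2 change -4.76 ± 0.53, adjusted p = 0.000178). LysD was at 1063 and 1387 in E2f2/Dp embryos, 8864 and 4792 in Dp mutants, and 677 and 1503 in control embryos (log2 change -2.42 ± 0.43, adjusted p = 0.00756). LysB had a log2 change of -1.86 (adjusted p = 0.00756), LysE of -1.83 (adjusted p = 0.0116), alphaTry of -3.59 and Jon44E of -3.54 (both with adjusted p = 0.0203). Against the control arrays, none of the 27 genes passed in E2f2/Dp embryos (1 at an unadjusted p under 0.05, against 8.8% of all units). Against the same control arrays, 11 of the 27 were higher in Dp mutants, as were 187 of all 8975 units. The calls of LysB, LysD, LysE and Jon44E were lost without E2f2/Dp replicate 1 (adjusted p = 0.0851 to 0.142), and those of alphaTry (0.153) and Jon44E (0.0737) without E2f2/Dp replicate 2. Without Dp mutant replicate 1 these 5 genes had adjusted p of 0.102 to 0.254.

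In the gut genes the 2 Dp mutant arrays differed from each other. Of the 27, 25 were brighter on Dp mutant replicate 1, against 45.9% of all units. The summed signal of the list was 16980 and 17200 in E2f2/Dp embryos, 107440 and 44471 in Dp mutants, and 10615 and 21243 in control embryos. Control embryos of 14 to 16 h had sums of 80748 and 57694. The number of called gut genes was 3 without E2f2/Dp replicate 1, 4 without E2f2/Dp replicate 2, 1 without Dp mutant replicate 1 and 14 without Dp mutant replicate 2. The call that held throughout was betaTry. The E2f1 contrast called none of the 27 (6 at an unadjusted p under 0.05, against 15.8% of all units), and the difference between the contrasts passed for 6 of them, with betaTry at -4.90 (adjusted p = 0.00762) and LysD at -3.12 (adjusted p = 0.0257). Without Dp mutant replicate 1 these 2 differences had adjusted p of 0.0544 and 0.128. That of LysD was also lost without E2f2/Dp replicate 1 (0.101), E2f2/Dp replicate 2 (0.055), E2f1/Dp replicate 1 (0.102) and E2f1 mutant replicate 1 (0.1).

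Of 19 measured muscle genes 3 were lower in E2f2/Dp embryos, Prm, Tm2 and Mlc1, against 1.63% of all units. The median log2 change was -1.11 with 17 of 19 values below 0, as were 45.9% of all units. Prm, which encodes the thick filament protein paramyosin, was at 98.5 and 183 in E2f2/Dp embryos, 3091 and 890 in Dp mutants, and 711 and 326 in control embryos. The 3 groups did not overlap (log2 change against Dp mutants -3.63 ± 0.51, adjusted p = 0.00157). Tm2, a tropomyosin, was at 240 and 408 in E2f2/Dp embryos and at 2348 and 878 in Dp mutants (log2 change -2.20, adjusted p = 0.0117). Mlc1, a myosin light chain, was at 1243 and 1538 in E2f2/Dp embryos and at 6062 and 2209 in Dp mutants (log2 change -1.40, adjusted p = 0.0427). Of the 19 genes 17 were brighter on Dp mutant replicate 1 than on replicate 2, against 45.9% of all units. The summed signal was 34043 and 34699 in E2f2/Dp embryos, 80159 and 44613 in Dp mutants, and 31144 and 44750 in control embryos. The list's median was -0.62 without Dp mutant replicate 1 and -1.76 without replicate 2. The call of Prm held without each array. Those of Tm2 (adjusted p = 0.142) and Mlc1 (0.262) were lost without E2f2/Dp replicate 1, those of Tm2 (0.167) and Mlc1 (0.387) without Dp mutant replicate 1, and that of Mlc1 (0.108) without E2f2/Dp replicate 2. Among the muscle genes, 7 passed without Dp mutant replicate 2.

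**Figure D3:**
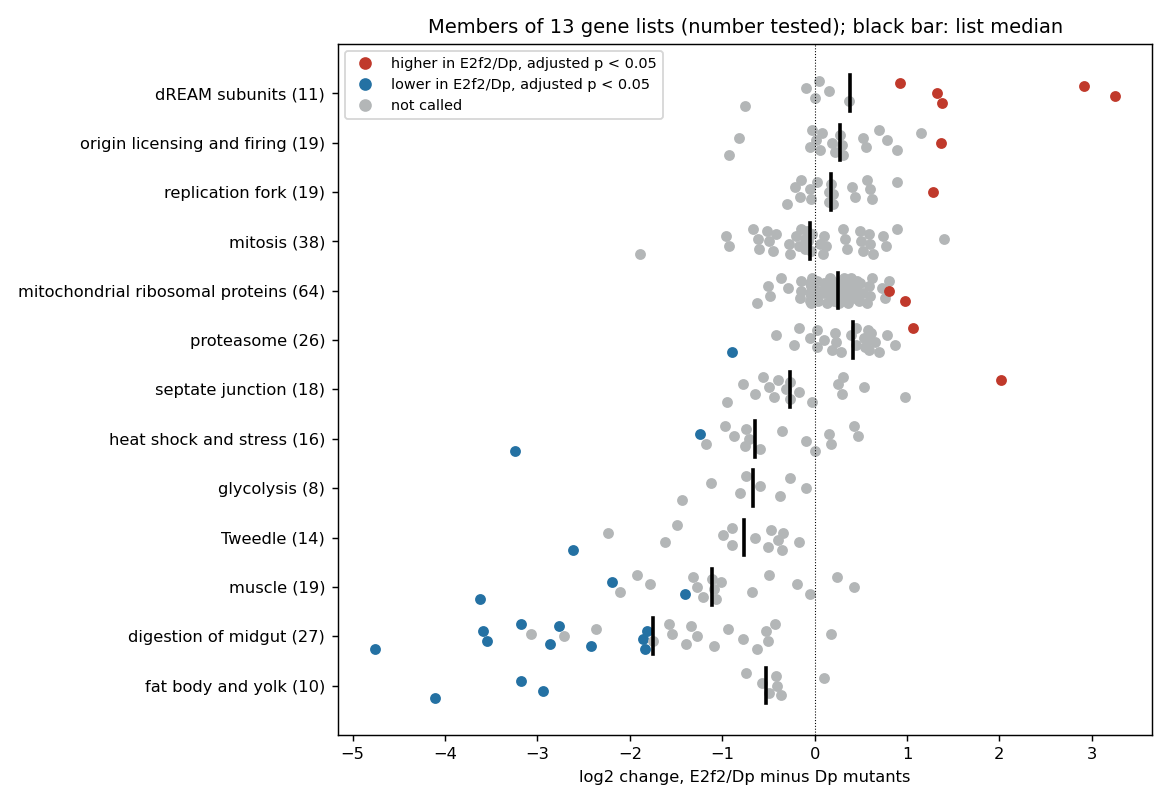
Log2 change of the members of 13 gene lists in E2f2/Dp minus Dp mutants, with 1 point per gene, red for higher and blue for lower calls, and a black bar at each list's median. Gut genes have 10 blue points and a median of -1.75. The dREAM subunits have 5 red points, which include the transgenes E2f2 and Dp, and the median of all tested units is 0.05.

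The yolk protein genes were brightest in Dp mutants. Yp1, Yp2 and Yp3 are known as products of the adult female fat body and ovary that are packed into eggs. They were the 3 calls among 10 fat body and yolk genes, against 1.63% of all units called lower. Yp2 was at 108 and 127 in E2f2/Dp embryos, 1090 and 736 in Dp mutants, and 115 and 174 in control embryos (log2 change -2.94 ± 0.62, adjusted p = 0.0199). Yp1 was at 57.5 and 22.0 in E2f2/Dp embryos and at 1207 and 674 in Dp mutants (log2 change -4.11 ± 1.03, adjusted p = 0.0461). Yp3 was at 108 and 43.7 in E2f2/Dp embryos and at 825 and 515 in Dp mutants (log2 change -3.18, adjusted p = 0.0483). For Yp1 and Yp3 1 E2f2/Dp array was under the floor and entered the fit at the floor. For Yp1 the highest signal on the other 12 arrays of 8 to 10 h was 273. The calls of the 3 genes were lost without E2f2/Dp replicate 1 (adjusted p = 0.118 to 0.195), E2f2/Dp replicate 2 (0.0719 to 0.233) and Dp mutant replicate 1 (0.18 to 0.297), and those of Yp1 (0.0795) and Yp3 (0.0812) without Dp mutant replicate 2. The 19 maternally loaded genes gave no call, with a median of 0.33 (3 at an unadjusted p under 0.05, against 17.9% of all units).

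Metabolic and stress genes added single calls on the lower side. Fmo-1, a flavin-containing monooxygenase, was under the floor on both E2f2/Dp arrays, at 18.6 and 17.0, and at 863 and 1053 in Dp mutants. It did not exceed 101 on the other 12 arrays and was at least 20.1-fold lower in E2f2/Dp embryos (adjusted p = 0.000227). Cyp4g1, the P450 with which oenocytes make cuticular hydrocarbons, was at 20.6 and 24.9 in E2f2/Dp embryos and at 565 and 487 in Dp mutants. It was at least 11.04-fold lower (adjusted p = 0.00524), lost its call without Dp mutant replicate 1 (adjusted p = 0.061), and did not exceed 140 on the other 12 arrays. CG34166 was at 46.2 and 185 in E2f2/Dp embryos, 11429 and 1565 in Dp mutants, and 106 and 400 in control embryos (log2 change -5.49 ± 0.83, adjusted p = 0.00282). Its first E2f2/Dp array was under the floor. Without E2f2/Dp replicate 1 its adjusted p was 0.0511. CG10911 was at 54.2 and 76.2 in E2f2/Dp embryos and at 2526 and 567 in Dp mutants (log2 change -4.22, adjusted p = 0.00545). CG3868 was at 98.1 and 63.1 in E2f2/Dp embryos and at 2290 and 408 in Dp mutants (log2 change -3.62, adjusted p = 0.013). Both lost their calls without E2f2/Dp replicate 1 (adjusted p = 0.0633 and 0.0673) and Dp mutant replicate 1 (0.0886 and 0.189), and CG3868 also without E2f2/Dp replicate 2 (0.0909).

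Of 16 heat shock and stress genes 2 were lower in E2f2/Dp embryos, GstD1 and Hsp68, against 1.63% of all units. In the E2f1/Dp contrast 3 of the 16 were lower, against 1.53% of all units. The list's summed signal was 28810 and 29832 in E2f2/Dp embryos, 41123 and 42654 in Dp mutants, and 40751 and 39618 in E2f1 mutants. It was 27810 and 28498 in E2f1/Dp embryos and 29641 and 28232 in control embryos. GstD1, a glutathione S-transferase, was at 2976 and 2779 in E2f2/Dp embryos and 7551 and 6116 in Dp mutants (log2 change -1.24 ± 0.23, adjusted p = 0.0102). Hsp68, a stress-inducible chaperone, was at 36.3 and 96.4 in E2f2/Dp embryos and at 246 and 1680 in Dp mutants (log2 change -3.25, adjusted p = 0.0287), with 1 E2f2/Dp array under the floor. Drs, the antifungal peptide drosomycin, was at 125 and 82.7 in E2f2/Dp embryos and at 371 and 603 in Dp mutants (log2 change -2.22, adjusted p = 0.0214). In the other pair Drs was at 115 and 120 in E2f1/Dp embryos and at 222 and 369 in E2f1 mutants, which did not pass (adjusted p = 0.176). The calls of GstD1, Hsp68 and Drs were lost without E2f2/Dp replicate 1 (adjusted p = 0.0667, 0.233 and 0.079) and replicate 2 (0.0626, 0.0595 and 0.132). GstD1 (0.113) and Drs (0.0818) lost theirs without Dp mutant replicate 1, and Hsp68 (0.184) and Drs (0.115) without Dp mutant replicate 2. The 8 glycolysis genes gave no call, although all 8 values were below 0, with a median of -0.67 (4 at an unadjusted p under 0.05). Of all units 45.9% had values below 0 and 17.9% reached that p. Of the 8 glycolysis genes 7 were brighter on Dp mutant replicate 1 than on replicate 2, against 45.9% of all units. Their summed signal was 18947 and 9981 in Dp mutants, 8639.5 and 9509.2 in E2f2/Dp embryos, and 9368.7 and 9646.1 in control embryos.

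**Figure D4:**
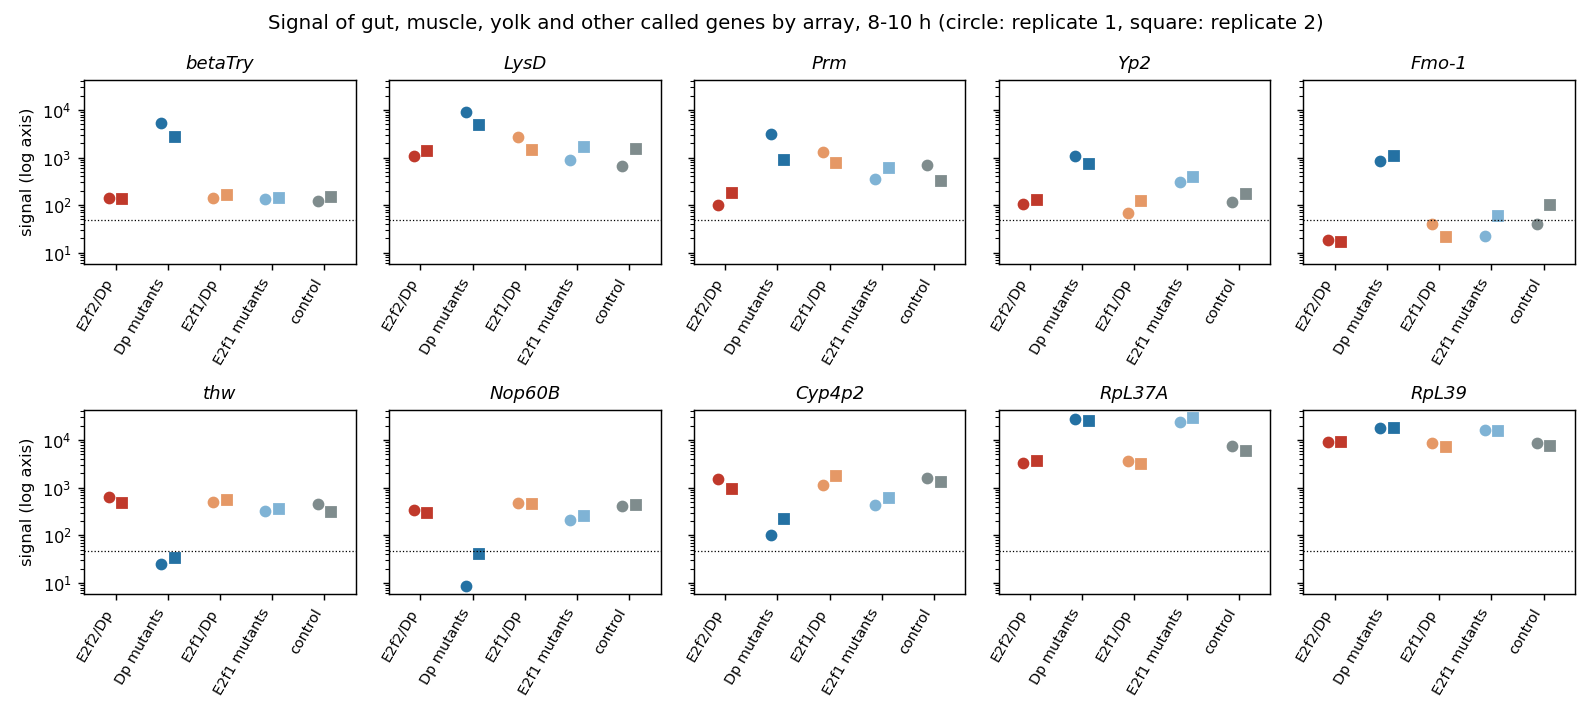
Quantile-normalised signal (log axis) of 10 called genes on each array of 8 to 10 h, by genotype from E2f2/Dp on the left to control on the right, with 1 point per array and a dotted line at the floor of 47.5. betaTry, Yp2 and Fmo-1 are highest and thw and Nop60B lowest in Dp mutants, whereas RpL37A and RpL39 are high in Dp mutants and in E2f1 mutants.

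Of 28 epidermis and cuticle genes 2 were lower in E2f2/Dp embryos, Acp1 and Cht6, and of 14 Tweedle cuticle genes 1, TwdlC. Of all units 1.63% were called lower. The Tweedle list had a median of -0.77 with all 14 values below 0, as were 45.9% of all units. Of the 14 genes 13 were brighter on Dp mutant replicate 1 than on replicate 2, against 45.9% of all units. Their summed signal was 36598 and 23006 in Dp mutants, 13575 and 18871 in E2f2/Dp embryos, and 20907 and 22444 in control embryos. TwdlC was at 94.2 and 84.0 in E2f2/Dp embryos and at 551 and 538 in Dp mutants (log2 change -2.61, adjusted p = 0.0461). Acp1 was at 99.9 and 84.0 in E2f2/Dp embryos and at 456 and 1723 in Dp mutants (log2 change -3.27, adjusted p = 0.0495). Cht6, a chitinase, had a log2 change of -2.21 (adjusted p = 0.0316) on the probe set used, and 0.10 and 0.03 on its 2 other probe sets. Its first E2f2/Dp array was under the floor. Without Dp mutant replicate 1 the adjusted p of TwdlC, Acp1 and Cht6 was 0.234, 0.079 and 0.279. Without E2f2/Dp replicate 1 it was 0.196, 0.204 and 0.255, and without E2f2/Dp replicate 2 0.165, 0.175 and 0.0551. Without Dp mutant replicate 2 TwdlC (0.112) and Acp1 (0.246) lost their calls. The 12 Osiris, 9 glial, 10 neuronal, 26 patterning, 20 haemocyte and basement membrane and 16 ecdysone genes gave no call. At an unadjusted p under 0.05 these lists held 3, 4, 1, 1, 7 and 1 genes, in the same order, against 17.9% of all units.

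pio, a zona pellucida protein of the tracheal lumen, was the 1 call among 10 tracheal genes, against 1.63% of all units called lower. It was at 542 and 548 in E2f2/Dp embryos, 1484 and 1280 in Dp mutants, and 836 and 793 in control embryos, with no overlap between the 3 groups. Its log2 change was -1.34 ± 0.23 (adjusted p = 0.00756). grh, a transcription factor of epidermis and neuroblasts, was at 570 and 400 in E2f2/Dp embryos and at 991 and 1067 in Dp mutants (log2 change -1.11 ± 0.25, adjusted p = 0.0305). spn-E, an RNA helicase of the germline piRNA pathway, was at 183 and 172 in E2f2/Dp embryos and at 514 and 568 in Dp mutants (log2 change -1.61 ± 0.36, adjusted p = 0.0256). It was the only call among 23 germline genes, against 1.63% of all units called lower. grh and spn-E lost their calls without each of the 4 arrays in turn (adjusted p = 0.0633 to 0.189), and pio without E2f2/Dp replicate 1 (0.0662) and Dp mutant replicate 1 (0.0886).

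Of 26 proteasome genes Prosalpha5 was called higher and Rpt5 lower, and 13 had an unadjusted p under 0.05. Of all units 1.17% were called higher and 1.63% lower, and 17.9% reached that p. The proteasome list's median log2 change was 0.42, and 21 of its 26 values were above 0, as were 54.1% of all units. Prosalpha5, a core particle subunit, was at 2541 and 2205 in E2f2/Dp embryos and at 1143 and 1120 in Dp mutants (log2 change 1.06 ± 0.17, adjusted p = 0.00524). Rpt5, an ATPase of the regulatory particle, was at 1578 and 1571 in E2f2/Dp embryos and at 2859 and 2979 in Dp mutants (log2 change -0.89 ± 0.16, adjusted p = 0.0078). Of 64 mitochondrial ribosomal protein genes 2 were higher, mRpS24 and mRpS28, with a median of 0.26. Of 56 respiratory chain and ATP synthase genes 3 were higher, ND-B14.5B, COX5B and ND-13A, and ATPsynepsilonL was lower. At an unadjusted p under 0.05 the mitochondrial ribosomal list held 11 genes and the respiratory chain list 14, against 17.9% of all units. ND-B14.5B, of complex I, was at 7339 and 6398 in E2f2/Dp embryos and 3783 and 3588 in Dp mutants (log2 change 0.90 ± 0.16, adjusted p = 0.0102). All 8 of these calls were lost without E2f2/Dp replicate 1 (adjusted p = 0.0666 to 0.345). Without Dp mutant replicate 1, those of Prosalpha5 (0.0454) and mRpS28 (0.0401) held and the other 6 were lost (0.0611 to 0.167). Without E2f2/Dp replicate 2 mRpS24, mRpS28, COX5B and ND-13A were lost (0.0551 to 0.0962), and without Dp mutant replicate 2 the same 4 genes (0.0966 to 0.243).

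RpL37A and RpL39 were the only calls among 30 cytoplasmic ribosomal protein genes, whose median was -0.03. Both were called lower in E2f2/Dp embryos, as were 1.63% of all units. RpL37A was at 3304 and 3727 in E2f2/Dp embryos, 27571 and 25272 in Dp mutants, and 7585 and 6000 in control embryos (log2 change -2.91 ± 0.31, adjusted p = 0.000151). It had the same order in the other pair, with 3619 and 3225 in E2f1/Dp embryos and 24447 and 28764 in E2f1 mutants (log2 change -2.96). RpL39 was at 9032 and 8989 in E2f2/Dp embryos and at 17575 and 18008 in Dp mutants (log2 change -0.98 ± 0.16, adjusted p = 0.00528), and at 8911 and 7189 in E2f1/Dp embryos and 16306 and 15487 in E2f1 mutants. RpL39 had an adjusted p of 0.0509 without E2f2/Dp replicate 1. In both pairs the mutants came from sorted balancer stocks and the overexpressing embryos from Arm-Gal4 crosses, so stock and genotype cannot be told apart.

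The direction of the calls followed the change of genes with normal age. Between control embryos of 14 to 16 h and of 8 to 10 h, 1579 units (17.6%) were higher at the later age and 2297 (25.6%) lower. Of the 105 units higher in E2f2/Dp embryos than in Dp mutants, 79 (75.2%) were among those lower at the later age. Of the 146 units lower in E2f2/Dp embryos, 100 (68.5%) were among those higher at the later age. By class, 6.33% of the genes that rose with age were called lower in E2f2/Dp embryos and 0.19% higher, while of those that fell with age 0.697% were called lower and 3.44% higher. Across the 8975 units the log2 changes of genotype and of age had a Pearson correlation of -0.364, given as a description of contrasts that share no array. A stage index was set to 0 for control embryos of 8 to 10 h and 1 for those of 14 to 16 h. On it the E2f2/Dp arrays lay at 0.035 and 0.053 and the Dp mutant arrays at 0.323 and 0.141. The E2f1 mutants of 8 to 10 h lay at 0.195 and 0.225 and the E2f1/Dp embryos at 0.15 and 0.114. Dp mutant replicate 1, the more advanced by this index, was also the brighter one for most gut and muscle genes. The gut list was left out of the index. The muscle list was not, so for muscle genes index and brightness may rest on the same genes.

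After the change with age was taken off in proportion to the stage index, 99 units passed, 38 higher and 61 lower, of which 87 were among the 251. Of the S-phase and dREAM genes E2f2, Dp, PCNA (adjusted p = 0.0443) and dnk (0.0105) kept their calls, and Mcm2 (0.207), dUTPase (0.26), mip130 (0.185), mip40 (0.102) and Caf1-55 (0.0918) lost theirs. Of the gut genes 4 passed, and of the muscle genes Prm (0.0126). This setting was chosen after the data had been seen, and the part of developmental age in the other calls was not tested further.

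**Figure D5:**
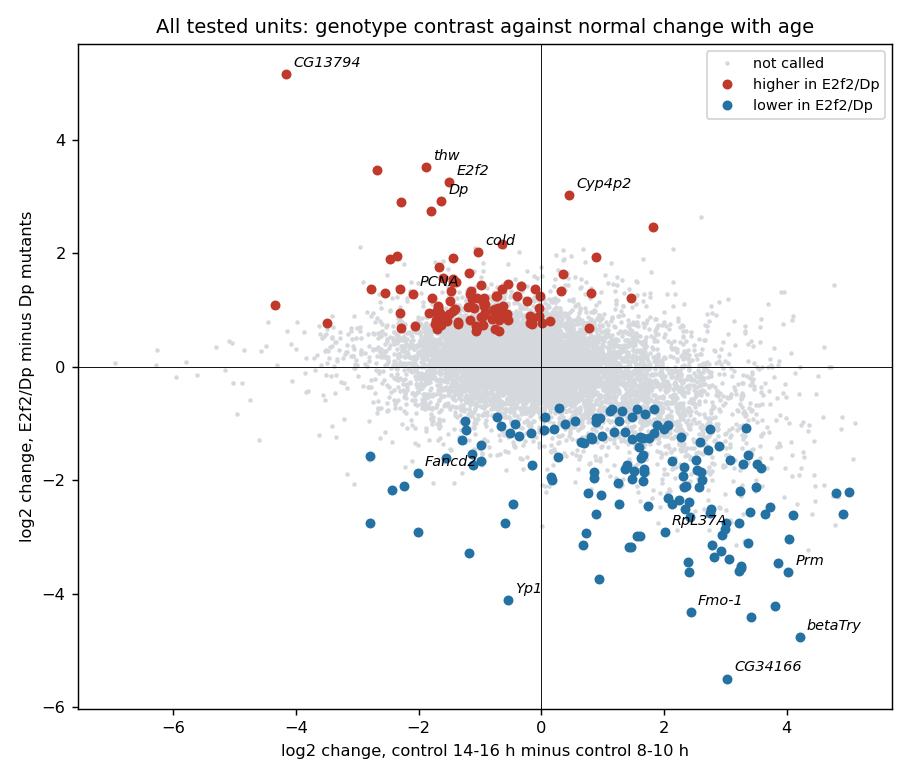
Log2 change in E2f2/Dp minus Dp mutants (vertical) against the change in control embryos between 8 to 10 h and 14 to 16 h (horizontal), with 1 point per tested unit, red for the 105 higher and blue for the 146 lower calls. Most red points lie left of zero and most blue points right of it, while Cyp4p2, Yp1 and Fancd2 do not follow this pattern.

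Calls that did not follow the age pattern numbered 72, of which 53 were on units without a call with age. Cyp4p2 was the largest higher call among these 53, with a log2 change of 0.45 with age. Yp1, Yp2 and Yp3, Drs, and the respiratory chain genes ND-B14.5B, COX5B, ND-13A and ATPsynepsilonL also belonged here. The 16 units that were lower at the later age in the control and also lower in E2f2/Dp embryos included Fancd2, spn-E, grh, Rpt5 and CG9344. The 3 that were higher at the later age and higher in E2f2/Dp embryos were CG14762, CG1847 and CG13585.

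By chromosome, 3.63% of the units on arm 2L and 3.26% of those on 2R were called, against 2.17% on X, 2.16% on 3L and 2.31% on 3R. Dp and E2f2 both lie on chromosome 2, for which the Dp mutants carried a selected pair of homologues, and the part of linked differences between stocks was not tested.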

How the data were processed

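RNA of whole Drosophila embryos was measured on 18 Affymetrix arrays of 9 groups, 2 arrays each. The values that the authors deposited are probe set intensities, 1 per probe set and array; their linear scale and a common scaling of the arrays were read from the values themselves. The software that summarised them is not given in the sources used here, and the medians of the deposited arrays differed by up to 0.244 on the log2 scale.

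The intensities were quantile normalised over all arrays, set to a floor at the 20th percentile (47.5), and log2 transformed. Printed signals are quantile-normalised values before the floor, and a fold against a group at the floor is a lower bound, written "at least". The dimmest 30% of probe sets were left out and the brightest probe set stood for each gene, which left 8975 units. Of 13966 probe sets, 12443 had 1 gene in the platform annotation, 327 several and 1196 none. limma 3.58.1 in R 4.3.3 fitted 9 group means with eBayes and an intensity trend, and p-values were adjusted by the Benjamini-Hochberg method over all units, with a threshold of 0.05. All adjusted p-values in the text come from this limma fit or its alternatives, and the procedure was tested on simulated data. ± is the standard error of a log2 change. The number of arrays limits the precision.

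Samples were grouped by genotype and age in the labels. Members and gene lists were chosen with earlier results of these data known. Named genes were E2f2, Dp, E2f1 and Rbf, the 10 largest non-overlapping changes in each direction, the 4 smallest p-values of each list described, all members of the E2F and dREAM lists, and the 5 largest differences between contrasts in each direction. Genes named beyond this rule, to complete the calls of a list or a set, were chosen after their values were seen. The stage index used the 300 genes most changed in each direction between both control ages. Genes of the origin, replication fork, nucleotide synthesis, mitosis, cytoplasmic and mitochondrial ribosomal and digestion lists were left out beforehand. Alternatives covered scaling, floor, filter, probe set choice, bright probe sets, eBayes settings, a replicate block, a minimum fold, the arrays in the fit, and leaving out each array. The replicate numbers were not taken as pairs, since only 2 are shared and the labels tie them to no batch.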

Additional observations from a re-analysis of the deposited data

Results flagged for a closer look

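The E2f2/Dp contrast with Dp mutants and the E2f1/Dp contrast with E2f1 mutants, which share no array, differed in 125 units by the interaction term of the limma fit. The log2 differences below are those between the contrasts (E2f2/Dp minus Dp mutants, less E2f1/Dp minus E2f1 mutants), each past an adjusted p of 0.05, and groups of 2 arrays allowed no search for outlying arrays.

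Of the transgenes and S-phase genes, E2f2 differed by 2.49, E2f1 by -4.60, dpa by -2.18, PCNA by -1.96 and RnrL by -2.02. Of the repair genes, Fancd2 differed by -3.58 and tefu, the Drosophila ATM kinase, by -2.46.

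Of the gut genes, betaTry differed by -4.90, alphaTry by -5.27, LysB by -2.16, LysD by -3.12, LysE by -2.35 and Mal-A3, a maltase, by -4.82. Of the muscle genes, Prm differed by -4.75 and Tm2 by -2.56.

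Of the other named genes, Fmo-1 differed by -4.18, Drsl5 by -2.68, CG13044 by -4.84, cold by 1.74, mRpS24 by 1.17 and Cpr49Ac by 3.25. CG6142 differed by 3.19, CG14312 by 3.10, l(3)87Df by 2.80 and ry, the xanthine dehydrogenase of the rosy eye colour locus, by 2.72. The differences of CG14312, cold, PCNA, Drsl5 and Prm passed without each of the 8 arrays in turn.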

How the results depend on the processing

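Among the named genes, no value called in the E2f2/Dp contrast with Dp mutants changed sign under the alternatives run. Cht6 (-2.21) nevertheless had 0.10 and 0.03 on its 2 other probe sets. The other called units were not checked for a change of sign. In the E2f2/Dp contrast with Dp mutants, 251 calls became 136 without the intensity trend, 165 with the arrays of 8 to 10 h alone, 29 with the 4 arrays compared alone and 99 with the stage index taken off, and 48 to 302 when 1 array was left out. Against the control, E2f2/Dp embryos gave 15 calls without the filter, 2 without bright probe sets, 4 with the arrays of 8 to 10 h alone, 1 with the groups alone and 3 to 195 when 1 array was left out. Dp mutants gave 166 without the trend, 234 with the arrays of 8 to 10 h alone, 7 with the groups alone and 71 to 783 when 1 array was left out. The E2f1/Dp contrast gave 129 with the groups alone and 115 to 237 when 1 array was left out. The difference of both contrasts gave 81 with median centring, 61 without the trend, 76 with the arrays of 8 to 10 h alone, 52 with the groups alone and 11 to 237 when 1 array was left out. The cause was not tested, except that fewer arrays leave fewer degrees of freedom.

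Without the filter 54.3% of the calls between E2f2/Dp embryos and Dp mutants were higher, against 41.8% with it. With the deposited scaling 215 of the 251 calls were kept, and with median centring 187. With the replicate number as a block, the E2f2/Dp contrast with Dp mutants gave 231 calls, of which 220 were among the 251, and the difference of both contrasts gave 99. The deviations of same-numbered arrays correlated at 0.029, over only 2 numbers. Dim probe sets at the floor give bounds only, and 2 arrays per group limit every value.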
